A study of Mus musculus with 4 samples.

Results

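The lateral septal complex (LSX) was read in 8 mice, as 1 averaged Visium column per mouse out of 24 columns for the 3 striatal regions, and GqCNO mice were set against all controls over 11036 tested genes of 22221 in the files. The columns were chosen by their region label. The groups compared were 3 GqCNO mice, 3 GqVeh mice and 2 CNO alone mice. All carried the genotype DAT (iCre/iCre), in which Cre recombinase is made where the dopamine transporter gene is active, and all were housed singly with running wheels. The labels give GqCNO and GqVeh mice as males of 3 to 4 months. GqCNO and GqVeh mice had AAV DIO-hM3Dq-mCherry injected on both sides of the midbrain, so that the activating receptor hM3Dq was made in dopamine neurons, whereas CNO alone mice were not injected. GqCNO and CNO alone mice drank clozapine-N-oxide (CNO), the ligand of hM3Dq, at 300 mg/L in water with 2% sucrose for 1 week, and GqVeh mice drank vehicle. GqVeh mice thus share the virus with GqCNO mice and CNO alone mice share the drug, and uninjected mice on vehicle were not analysed here. The study used the LSX as a control region of the striatal sections.

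The lateral septum lies medial to the striatum, along the lateral ventricles. Its neurons are mainly GABAergic, carry several neuropeptides and take input from the hippocampus, the hypothalamus and, more sparsely, midbrain dopamine neurons. In the injected mice the site of injection and Cre direct hM3Dq to dopamine neurons of the midbrain. Whether septal cells held any hM3Dq was not tested here, nor was the cause of a difference in the LSX.

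Levels are given as unique molecular identifiers (UMIs, each marking 1 captured transcript) per 10000 UMIs of a column, and differences are log2 differences of these levels after adding 0.05. The LSX columns held 80525 to 1354667 UMIs from 6 to 93 discs. GqCNO mouse 804 had 7 discs and 80525 UMIs, and GqVeh mouse 784 had 6 discs and 107462 UMIs, against 29 to 93 discs and at least 345303 UMIs in the other mice. A count of 0 therefore allows a level of up to 0.373 in the column with the fewest UMIs (mouse 804) and 0.0221 in the one with the most (CNO alone mouse C2W2), taking 3 UMIs as the limit and covering counting error only. Over the 3684 genes with a mean of at least 0.5, mouse 804 stood apart on the first principal component (42.7% of the variance, score 36.3 against -11.4 to -0.819 in the others) and mouse 784 on the second (28% of the variance, score 26.1 against -11.7 to 6.11). Most differences of the genes named below are given with and without both, a choice made after the data were seen.

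The label of the region was checked against septal genes that the authors did not use to pick discs. Zic1, a transcription factor gene of the septum, had 3.26 to 6.40 UMIs per 10000 in the LSX and 0.104 to 0.171 in the caudate putamen (CP) of the same mice. Trpc4, a cation channel gene of lateral septal neurons, had 0.745 to 1.10 in the LSX and 0.0298 to 0.0605 in the CP. Gad1, which makes the GABA-synthesizing enzyme, had 7.06 to 10.2 in the LSX and 4.20 to 5.46 in the CP. None of these ranges overlapped. Zic4, also examined, had 0.124 to 1.56 in the LSX, lowest in mouse 804, and 0.0113 to 0.0349 in the CP. Crhr2, a rarer septal gene, did overlap, with 0 to 0.550 in the LSX and 0.0044 to 0.0298 in the CP. Of the genes the authors did use, Prkcd had 1.95 to 4.97 in the LSX, and the CP gene Ppp1r1b had 0.539 to 1.61 in the LSX against 22.4 to 25.9 in the CP. The highest LSX value of Ppp1r1b belonged to mouse 804.

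**Figure D1:**
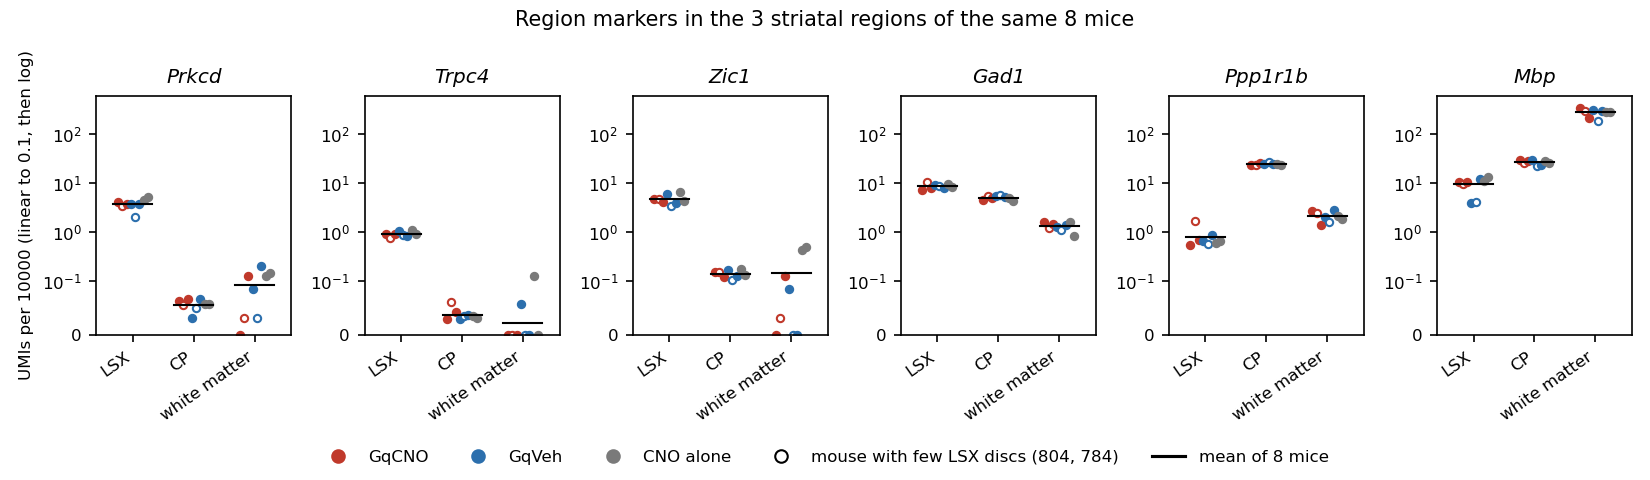
Levels of 6 region markers in the LSX, CP and white matter of the same 8 mice (y axis in UMIs per 10000, linear up to 0.1 and logarithmic above). Points are mice, in the order GqCNO, GqVeh and CNO alone, open points are the mice with few LSX discs, and lines are means of 8 mice. Zic1 and Trpc4 lie in the LSX far above the CP. Ppp1r1b lies in the LSX far below its CP level, and Mbp far below its white matter level. The LSX and white matter values of Ppp1r1b overlap.

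No gene in the LSX passed an adjusted p of 0.05 for GqCNO against all controls in limma (Benjamini-Hochberg over 11036 genes, 0% called, smallest adjusted p 0.911). At an unadjusted p under 0.05, 94 genes (0.852%) were higher and 258 (2.34%) were lower in GqCNO. In 132 genes (1.2%) all 3 GqCNO mice lay above all 5 controls, and in 253 genes (2.29%) all 3 lay below. The median difference of all tested genes was -0.04. An unadjusted limma p under 0.05 against each control group in the same direction was reached by 4 genes (0.0362%) with positive and 18 (0.163%) with negative differences. With the methods' t-test on the values as deposited, in place of limma, these counts were 10 and 35. The 4 were Tsc22d3, Rps29, Rps15 and Rpl35a. No gene passed adjustment against GqVeh alone (172 higher and 235 lower unadjusted), against CNO alone (31 and 97) or between GqVeh and CNO alone (19 and 87).

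The interval of a difference was wide. The 95% interval reached, at the median, to either side of the difference by 0.32 for the 275 genes with a mean of 5 or more, 0.51 for the 3409 genes between 0.5 and 5, and 0.91 for the 7352 rarer genes, or 1.24-fold, 1.42-fold and 1.88-fold. These widths hold for 1 gene before adjustment, and a difference within its own width could not be told from 0. Differences beyond them did not pass adjustment either, such as -1.23 for Fabp7 (limma, adjusted p = 0.911). Without mice 804 and 784 again no gene passed (smallest adjusted p 0.406), with 148 genes higher and 321 lower unadjusted.

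**Figure D2:**
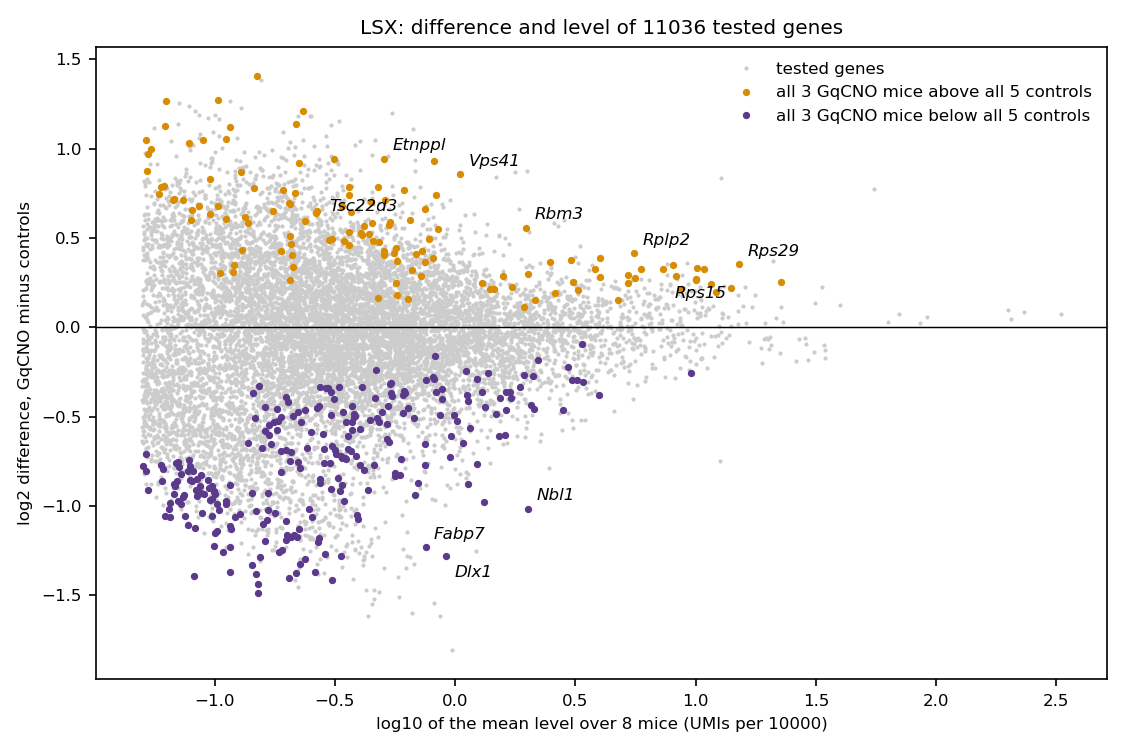
Log2 difference of GqCNO against all controls (y axis) and log10 of the mean level in UMIs per 10000 (x axis) for each tested LSX gene. Orange and purple points are the 132 genes with all 3 GqCNO mice above and the 253 with all 3 below the 5 controls. The scatter narrows with level, and 3 ribosomal protein genes (Rps29, Rplp2 and Rps15) are labelled among the abundant genes at the right.

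The genes described first are the 10 largest positive and the 10 largest negative differences among genes with a mean of at least 0.5, an unadjusted p under 0.05 and no overlap between GqCNO and controls. All of them had an adjusted p of 0.911, and their groups do not overlap because the rule requires it.

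Etnppl, an astrocyte gene for an enzyme that breaks down phosphoethanolamine (chr3:130617448-130635750), had 0.796, 0.621 and 0.759 UMIs per 10000 in GqCNO mice 801, 804 and 781. It had 0.261, 0.186 and 0.466 in GqVeh and 0.428 and 0.522 in CNO alone mice. The difference was 0.94 ± 0.29 (SE) for the 8 mice and 0.85 without mice 804 and 784. Its difference was 1.32 in the CP (adjusted p = 0.0602) and 1.63 in the white matter (adjusted p = 0.998) of the same mice. The LSX difference minus the CP difference was -0.37 (adjusted p = 0.852).

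Tsc22d3, which makes the glucocorticoid-induced leucine zipper GILZ (chrX:140539528-140600522), had 0.976, 0.869 and 0.669 in GqCNO, 0.550, 0.558 and 0.331 in GqVeh and 0.340 and 0.621 in CNO alone mice. The difference was 0.77 ± 0.27 (SE), and it was 0.76 against GqVeh and 0.78 against CNO alone, so that both control groups lay on the same side. It was 0.80 without mice 804 and 784 and 0.63 in the CP. Rbm3, which makes a cold-inducible RNA-binding protein (chrX:8138975-8145880), had 2.36, 2.11 and 2.95 in GqCNO, 1.16, 2.05 and 1.67 in GqVeh and 1.64 and 1.86 in CNO alone mice, a difference of 0.56 ± 0.20 (SE), or 0.74 without mice 804 and 784. The gap between the lowest GqCNO mouse and the highest control was small for Rbm3, and both were the mice with few discs.

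Vps41, part of the HOPS complex that tethers vesicles to lysosomes (chr13:18717292-18866811), had 1.27, 1.49 and 1.51 in GqCNO mice. It had 0.463, 0.465 and 0.847 in GqVeh mice but 1.26 and 1.07 in CNO alone mice, just under GqCNO. Its difference was 0.86 against all controls (0.66 without mice 804 and 784), 1.25 against GqVeh and 0.27 against CNO alone. Amph, Stard3nl and Epdr1, which lie further along chromosome 13 (between 18948142 and 19619830), and Elmo1 beyond them (20090507 to 20608353) were looked up after this was seen. Stard3nl, a late endosome protein gene, had 0.436, 0.745 and 0.737 in GqCNO, 0.232, 0.372 and 0.307 in GqVeh and 0.598 and 0.562 in CNO alone mice. GqVeh minus CNO alone was -0.97 for Vps41, -0.85 for Stard3nl, -0.79 for Amph and -0.89 for Epdr1, but -0.12 for Elmo1 (adjusted p = 0.999 each). GqCNO minus all controls was 0.61 for Stard3nl, 0.29 for Amph, 0.11 for Epdr1 and 0.79 for Elmo1 (0.24 without mice 804 and 784). Against CNO alone it was 0.10, -0.18, -0.42 and 0.71. The CP differences against all controls were 0.67 for Vps41, 0.66 for Stard3nl, 0.52 for Amph, 0.55 for Epdr1 and 0.20 for Elmo1.

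Cox16, an assembly factor of cytochrome c oxidase, had a difference of 0.74 and Mrpl14, a protein of the mitochondrial ribosome, one of 0.71, with 0.39 and 0.31 without mice 804 and 784. Impdh2, which makes the rate-limiting enzyme of guanine nucleotide synthesis, had 0.950, 1.24 and 0.771 in GqCNO, 0.434, 0.558 and 0.724 in GqVeh and 0.679 and 0.621 in CNO alone mice. Its difference of 0.66 ± 0.24 (SE) was 0.47 without both mice and 0.03 in the CP. The remaining 3 positive differences were 0.60 (1700001L19Rik), 0.59 (Btbd8) and 0.57 (March5), with 0.50, 0.45 and 0.49 without mice 804 and 784. Mouse 804 was the highest of all 8 mice for 5 of these 10 genes, with 5 to 17 UMIs a gene.

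Fabp7, which makes the brain fatty acid-binding protein of astrocytes and neural progenitors (chr10:57784923-57788450), had the smallest unadjusted p of all genes. It had 0.578, 0.248 and 0.374 in GqCNO, 0.927, 1.21 and 0.921 in GqVeh and 0.871 and 0.906 in CNO alone mice. Every GqCNO mouse lay well under every control. The difference was -1.23 ± 0.26 (SE, 95% interval -1.80 to -0.67, adjusted p = 0.911), and it was -0.89 without mice 804 and 784. In the CP it was -0.39 and in the white matter -0.54, and the LSX minus CP difference was -0.84 (adjusted p = 0.852).

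Nbl1, which makes a secreted antagonist of bone morphogenetic proteins (chr4:139082291-139093126), had 1.26, 0.745 and 1.72 in GqCNO, 2.84, 2.79 and 1.79 in GqVeh and 2.72 and 2.19 in CNO alone mice. The difference was -1.02 ± 0.25 (SE) and -0.65 without both mice, with GqCNO mouse 781 next to GqVeh mouse 785. Dlx1, a homeobox gene of GABAergic neurons (chr2:71528113-71533981), had 0.745, 0.124 and 0.737 in GqCNO, 1.45, 0.838 and 0.921 in GqVeh and 1.58 and 0.956 in CNO alone mice. Its difference of -1.28 ± 0.44 (SE) was -0.65 without mice 804 and 784, and the lowest value, of mouse 804, was 1 UMI. Dlx2, its neighbouring relative, had a difference of -0.65 (-0.35 without both mice) and overlapping groups.

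Gng4, a G protein gamma subunit gene, had 1.34, 0.248 and 1.20 in GqCNO, 1.51, 1.95 and 1.36 in GqVeh and 1.48 and 1.41 in CNO alone mice. Its difference of -0.98 ± 0.40 (SE) was -0.18 without both mice, and the value of mouse 804 was 2 UMIs. Stim1, the calcium sensor of the endoplasmic reticulum, had a difference of -0.87 (-0.40 without both mice) and Ccnd1, which makes cyclin D1, one of -0.83 (-0.30). Psmd3, a proteasome regulatory subunit gene, had -0.87 (-0.34) and Tecpr1, an autophagy gene, -0.94 (-0.51). Tmem68 and Tmem183a had -0.83 and -0.82 (-0.52 and -0.55). Mouse 804 was the lowest of the 8 mice for all 10 negative differences, with 1 to 6 UMIs a gene, and without mice 804 and 784 the 10 differences lay between -0.89 and -0.18.

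Array 1 held GqCNO mice 801 and 804 and array 2 held GqCNO mouse 781. Fabp7 had a difference of -1.13 within array 1 and -1.31 within array 2, and Tsc22d3 one of 1.01 and 0.42. Nbl1 had -1.47 and -0.36, and Dlx1 -2.07 and -0.28, so that the differences of Nbl1 and Dlx1 were larger within array 1. Array 1 includes mouse 804, which had 6 UMIs of Nbl1 and 1 of Dlx1. Without mouse 804 the differences over both arrays were -0.704 for Nbl1 and -0.555 for Dlx1. The rule itself fixes the sign within each array, since it asks that the groups do not overlap. None of the 19 with a CP value differed between LSX and CP after adjustment (smallest adjusted p 0.852), and none of the 20 between LSX and white matter (0.991). Over all genes, 0% of 10262 differed from the CP response and 0% of 10134 from the white matter response.

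**Figure D3:**
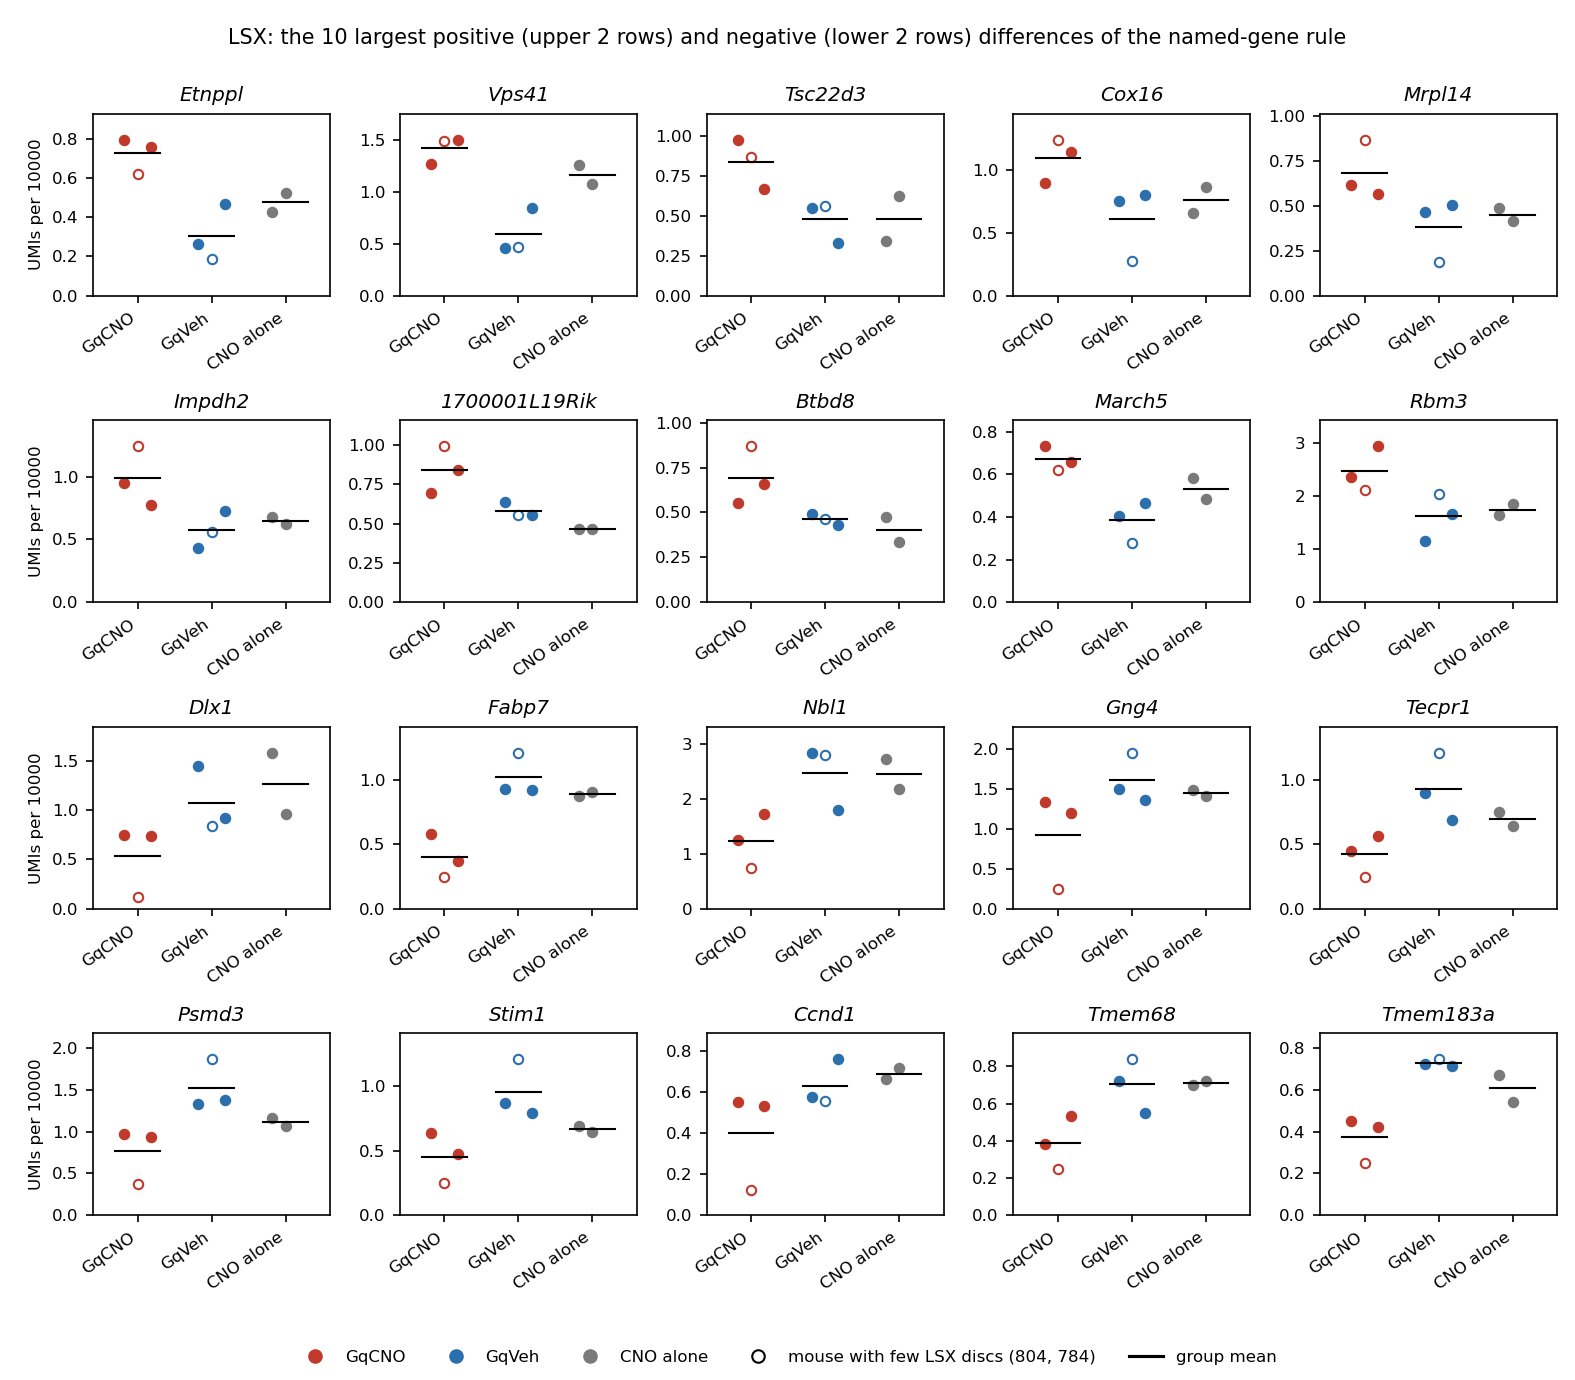
Levels (y axis, UMIs per 10000, starting at 0) of the 10 largest positive and the 10 largest negative differences by group (x axis). Points are mice, open points mice 804 and 784, lines group means. For Fabp7 the 3 GqCNO mice lie at 0.248 to 0.578, under all controls, while for Gng4 only mouse 804 lies far below.

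Gene lists covered 13 cell types and 20 pathways, and their members are described by counts and medians, to be read against the background shares above.

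Ribosomal proteins formed the list with the most members above the controls. Of 27 tested members 9 had all 3 GqCNO mice above all 5 controls and 5 were higher at an unadjusted p under 0.05, with none lower, against 1.2% and 0.852% of all genes. The median difference was 0.16 (0.26 without mice 804 and 784). It was 0.22 within array 1 and 0.16 within array 2, and 0.16 in the CP and 0.12 in the white matter. Rps29 (chr12:69157722-69159186) had 19.0, 18.8 and 14.9 in GqCNO, 14.3, 13.3 and 13.2 in GqVeh and 13.8 and 13.6 in CNO alone mice, a difference of 0.35 ± 0.12 (SE) and 0.29 without mice 804 and 784. Rps15 had 12.9, 12.5 and 11.6 in GqCNO, 9.18, 10.6 and 9.77 in GqVeh and 9.85 and 9.76 in CNO alone mice, a difference of 0.33 ± 0.12 (SE) and 0.34 without both. Rplp2, of the ribosomal stalk, had a difference of 0.42 ± 0.14 (SE) and 0.29 without both.

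Not every member lay above the controls. Rpl4, of the large subunit, had 10.9, 5.96 and 13.3 in GqCNO, 9.53, 12.9 and 11.1 in GqVeh and 10.1 and 10.4 in CNO alone mice, and its difference was -0.17, or 0.23 without mice 804 and 784. Over all 77 tested genes of the Rpl and Rps families, a set added after the data were seen, 16 had GqCNO above all controls and the median was 0.17. The family took 6.74%, 5.79% and 6.59% of the UMIs in GqCNO, 5.31%, 6.20% and 5.63% in GqVeh and 5.31% and 5.82% in CNO alone mice. Its share averaged 6.37% ± 0.511 in GqCNO and 5.65% ± 0.374 in controls (SD, n = 3 and 5, two-sided exact permutation p = 0.0893, where the smallest possible is 0.0179). The groups overlapped. Gm42418, which overlaps ribosomal RNA repeats, took 1.10%, 0.719% and 0.469% of UMIs in GqCNO, 0.494%, 0.285% and 0.407% in GqVeh and 0.523% and 0.431% in CNO alone mice. Its mean share was 0.762% in GqCNO and 0.428% in controls (two-sided exact permutation p = 0.0536), with the highest values in GqCNO mice 801 and 804. Malat1, a nuclear RNA, took 0.191% in GqCNO and 0.0884% in controls (two-sided exact permutation p = 0.143), highest in the same mice. The part of these RNAs in the ribosomal protein result was not tested.

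Among septal neuropeptide genes, Nts and Sst were lowest in both uninjected mice. Nts, which makes neurotensin (chr10:102481756-102490418), had 1.49, 2.48 and 2.49 in GqCNO mice. It had 1.33, 3.81 and 1.78 in GqVeh mice and 0.436 and 0.424 in CNO alone mice. Every injected mouse lay above both uninjected ones, and GqCNO and GqVeh overlapped. The difference was 0.01 against GqVeh and 2.16 against CNO alone (adjusted p = 0.798), and GqVeh minus CNO alone was 2.16 (adjusted p = 0.823). In the CP the difference against all controls was -0.36. Sst, the somatostatin gene, had 7.27, 8.94 and 10.1 in GqCNO, 7.64, 9.40 and 7.10 in GqVeh and 5.12 and 5.48 in CNO alone mice, so that both uninjected mice were again lowest.

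Penk, which makes enkephalins, had 0.950, 2.73 and 2.18 in GqCNO, 0.492, 2.05 and 2.14 in GqVeh and 0.443 and 0.867 in CNO alone mice. Cartpt, the CART peptide gene, had 0.103, 1.24 and 1.13 in GqCNO, 0.0869, 1.12 and 0.552 in GqVeh and 0.0960 and 0.0493 in CNO alone mice. In both genes mice 801 and 802 lay near the CNO alone mice and the other injected mice above them. Pnoc, which makes nociceptin, had a difference of -0.66, which was -0.17 without mice 804 and 784. Unadjusted, the 11 tested peptide genes held 2 that were higher (Nts and Sst) and 1 that was lower (Pnoc), and the list median of -0.19 was 0.26 without both mice. Of their receptors, Ntsr2 had 1.07, 0.994 and 1.20 in GqCNO, 1.42, 1.30 and 1.29 in GqVeh and 1.28 and 1.79 in CNO alone mice, with GqCNO below all controls and a difference of -0.36 (-0.33 without mice 804 and 784). None of the 16 tested receptors was past an unadjusted p of 0.05. Which discs of the septum were sampled cannot be told apart from the level of such locally expressed genes, since each column is 1 average.

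**Figure D4:**
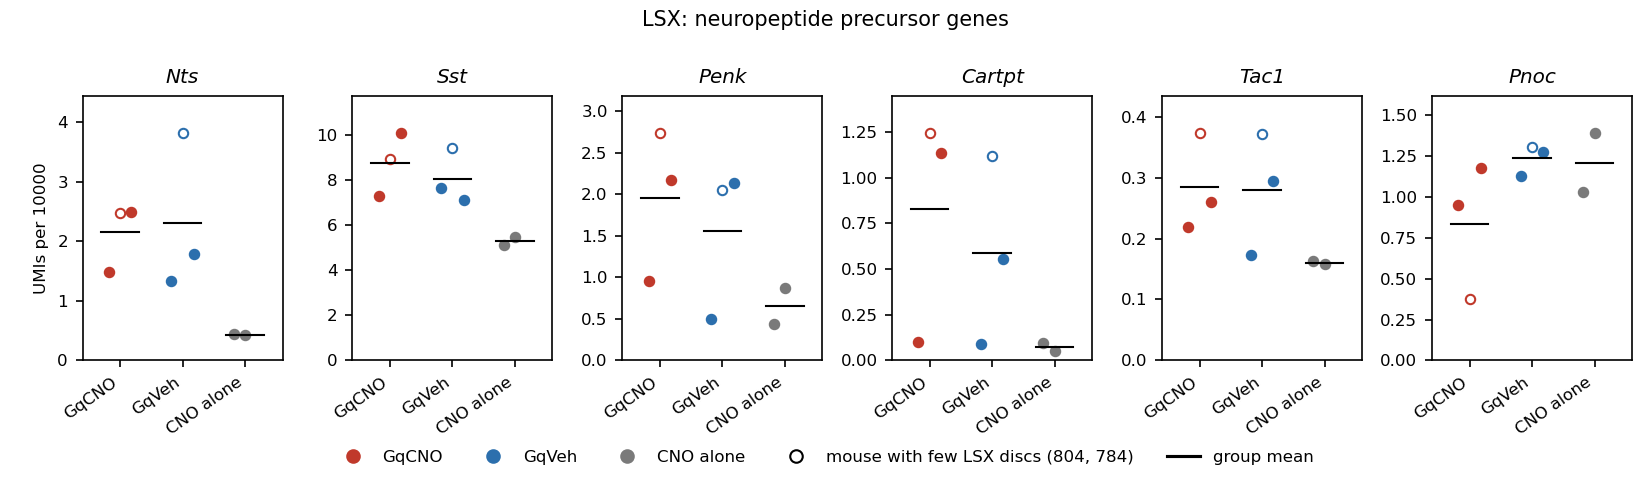
Levels (y axis, UMIs per 10000, starting at 0) of 6 neuropeptide precursor genes in the LSX by group (x axis). Points are mice, open points mice 804 and 784, lines group means. Nts and Sst lie lowest in both CNO alone mice, at 0.424 to 0.436 and 5.12 to 5.48.

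Dopamine genes gave little signal. Th, the gene for tyrosine hydroxylase, had 0 UMIs in all 8 LSX columns, which allows up to 0.0221 to 0.373 per 10000 depending on the mouse. Of 16 tested genes of dopamine receptors and their signalling, 1 was lower unadjusted, the inhibitory G protein gene Gnai2 with 2.73, 1.61 and 2.56 in GqCNO, 3.16, 3.44 and 3.12 in GqVeh and 3.15 and 2.77 in CNO alone mice (-0.46, and -0.20 without mice 804 and 784). Drd2, the D2 receptor gene, had 0.359, 0 and 0.385 in GqCNO, 0.319, 0.372 and 0.442 in GqVeh and 0.369 and 0.424 in CNO alone mice, so that mouse 804 alone differed, within the level its 0 UMIs allow. The list median was -0.06. Of 8 genes of dopamine synthesis, storage and breakdown 1 was lower unadjusted, the solute carrier gene Slc10a4, and the median was -0.09. Slc10a4 had a difference of -1.20, but -0.34 without mouse 804, which had 0 UMIs, and -0.30 without mice 804 and 784.

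Activity-regulated genes had a median of -0.19 over 20 tested members, with 7 above 0 and none past an unadjusted p of 0.05 in either direction. Without mice 804 and 784 the median was -0.45. Egr1, an immediate-early transcription factor gene, had 0.912, 1.37 and 0.782 in GqCNO, 1.85, 1.49 and 0.933 in GqVeh and 1.35 and 1.31 in CNO alone mice (-0.43 ± 0.25, SE, and -0.62 without both). Fos had 0.0128, 0.745 and 0.0680 in GqCNO, 0.492, 0.558 and 0.0736 in GqVeh and 0.0886 and 0.108 in CNO alone mice. Its range within GqCNO covered that of the controls, and mouse 804 held the highest value on 6 UMIs. Arc, an activity-induced synaptic gene, had a difference of -0.46 in the LSX (-0.48 without both mice) and -1.04 in the CP.

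Glucocorticoid-responsive genes had 3 of 14 tested members higher unadjusted and none lower, against 0.852% higher and 2.34% lower of all genes. These were Tsc22d3, already named above by the rule of no overlap, Sult1a1, and Fkbp5, which makes a co-chaperone of the glucocorticoid receptor. Sult1a1 had a difference of 0.98 (0.91 without mice 804 and 784), with 1.67 within array 1 and 0.11 within array 2. Its groups overlapped, and GqVeh mice 802 and 784 had 1 UMI each. Fkbp5 had 0.295, 0.497 and 0.238 in GqCNO, 0.232, 0 and 0.123 in GqVeh and 0.288 and 0.108 in CNO alone mice, so that the groups overlapped, and its difference of 1.18 was 0.48 without both mice. Sgk1, a kinase gene that glucocorticoids induce, had a difference of -0.10 (0.74 without both, with 0 UMIs in mouse 804) and the list a median of 0.13. Of the 18 clock genes 1 was lower unadjusted, Nr1d1 (REV-ERB alpha), with 0.424, 0.497 and 0.487 in GqCNO, 0.521, 1.86 and 0.749 in GqVeh and 0.738 and 0.729 in CNO alone mice (-0.77, and -0.53 without mice 804 and 784).

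In the list of Gq and phospholipase C signalling, the pathway of hM3Dq itself, the phospholipase gene Plcb4 was lower unadjusted (-0.69, and -0.44 without mice 804 and 784). The median over the 21 tested members was -0.08. Among 20 genes of synaptic vesicle release, Syn2, which makes a synapsin, was higher unadjusted (0.66, with 0.40 without mouse 804 and 0.54 without mice 804 and 784), and the list median was 0.00. H2-K1, of the class I histocompatibility complex, was the only 1 of 7 tested genes of interferon response and antigen presentation past an unadjusted p of 0.05. It had 0.154, 0.745 and 0.295 in GqCNO, 0.0579, 0 and 0.147 in GqVeh and 0.266 and 0.355 in CNO alone mice, and its difference of 1.18 was 0.22 without both mice. No member was past an unadjusted p of 0.05 among 21 tested genes of calcium handling, 25 of voltage-gated channels, 15 of heat shock chaperones, 16 of endoplasmic reticulum stress, 28 of nuclear-encoded and 13 of mitochondria-encoded respiratory subunits, 20 of the axon cytoskeleton and 13 of GABA and glutamate synthesis. The medians of these 8 lists lay between -0.12 and 0.12. Mitochondria-encoded genes took 13.7% ± 1.56 of UMIs in GqCNO and 13.0% ± 1.15 in controls (SD, n = 3 and 5, two-sided exact permutation p = 0.5).

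Markers of cells that border the septum varied between mice within groups. In bulk averages, fewer cells of a type and less RNA per cell cannot be told apart. The summed level of 14 oligodendrocyte markers was 30.2, 23.2 and 26.1 in GqCNO, 10.3, 10.8 and 31.7 in GqVeh and 35.1 and 36.3 in CNO alone mice. GqVeh mice 802 and 784 were far below the rest. The 8 ependymal markers, of the cells that line the ventricle, summed to 1.86, 0.25 and 1.97 in GqCNO, 1.04, 5.96 and 0.45 in GqVeh and 0.64 and 0.48 in CNO alone mice. The 9 choroid plexus markers summed to 1.31, 0.62 and 1.35 in GqCNO, 4.32, 0.65 and 0.61 in GqVeh and 7.06 and 1.02 in CNO alone mice. The ependymal median was 0.06 for 8 mice and 1.17 without mice 804 and 784. Their part in the differences above was not tested.

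Astrocyte and microglia markers were among those the authors used to leave discs out. Gfap, the intermediate filament gene of astrocytes, had 0.526, 0.248 and 0.714 in GqCNO, 1.22, 0.651 and 0.491 in GqVeh and 1.51 and 1.23 in CNO alone mice (-0.96, adjusted p = 0.911). The groups overlapped, and the difference of Gfap was -1.76 within array 1 and -0.04 within array 2, -0.58 without mouse 804, -0.71 without mice 804 and 784 and -0.33 after thinning to the shallowest column. Aldh1l1 had a difference of 0.11, Aif1 of 0.05 and P2ry12 of 0.22 (0.17, 0.33 and 0.34 without mice 804 and 784), and Aif1 was at 0 UMIs in mice 804 and 784. The median was 0.06 over 12 astrocyte and 0.01 over 13 microglia markers. Of 8 endothelial and mural markers Cldn5, a tight junction gene, was lower unadjusted, with 0.231, 0.124 and 0.181 in GqCNO, 0.521, 0.372 and 0.368 in GqVeh and 0.266 and 0.364 in CNO alone mice (-0.91, and -0.72 without mice 804 and 784). Markers of lateral septal neurons had a median of 0.01 over 12 tested members, and none was past an unadjusted p of 0.05.

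**Figure D5:**
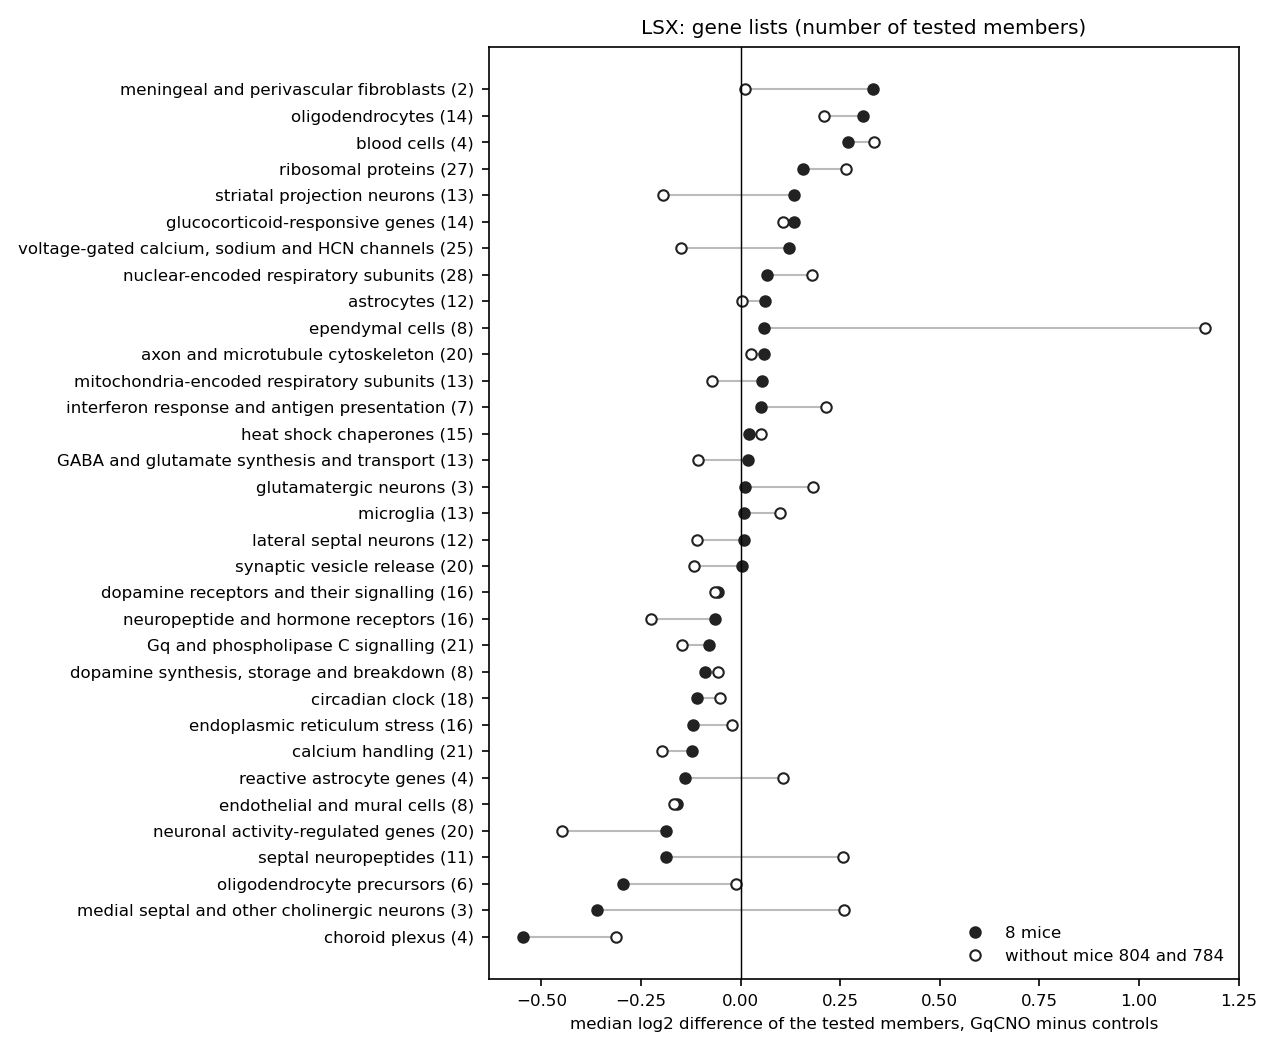
Median log2 difference of GqCNO against all controls (x axis) over the tested members of each gene list (y axis, number tested in brackets). Filled points are 8 mice and open points the same list without mice 804 and 784. The ependymal list shifts most, with 0.06 against 1.17, and the ribosomal protein list lies above 0 in both, at 0.16 and 0.26.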

How the data were processed

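Visium v1 libraries came from 10 µm fresh-frozen striatal sections. The authors aligned reads to mm10 with Space Ranger (versions not given in the sources used here), chose LSX discs in Loupe Browser by position and Prkcd, left out discs high in astrocyte or microglia markers, and deposited a median-normalized signal per gene, region and mouse. In each column the low values of this deposited signal were whole multiples of 1 step (100% within 0.05 steps), so UMIs were recovered from it. Deposited disc labels, of another kind, served to count discs. The files of the 2 arrays share 19955 genes, with 1127 and 1139 in only 1 file, set to 0 in the other.

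The mouse was the replicate. Columns were rescaled to 10000, log2 was taken after adding 0.05, and genes with a mean of at least 0.05 were tested in limma 3.58.1 (R 4.3.3) with a mean per group and a variance trend. The contrast was GqCNO minus 0.6 GqVeh minus 0.4 CNO alone. A log2 difference understates changes of low genes. Region responses were compared on the difference per mouse. The script was tested on simulated data. Gene positions are from GRCm38.p6, matched by symbol for 10859 of 11036 tested genes.

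Named genes were, by rule, the 10 largest differences in each direction (mean of at least 0.5, unadjusted p under 0.05, no overlap), up to 2 members per list with an unadjusted p under 0.05, and the genes used to choose or leave out discs. Others, such as Stard3nl, Amph, Epdr1, Elmo1, Dlx2, Penk, Cartpt, Egr1, Fos, Arc, Drd2, Ntsr2, Fkbp5, Sgk1, Rpl4, Rps15, Malat1 and Gm42418, were chosen after their values were seen. Some genes that the rule names are not reported here. Members and lists were chosen with earlier results of these data known. Alternatives changed the scaling, constant, filter, model, test (edgeR 4.0.16, voom), depth and mice.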

Additional observations from a re-analysis of the deposited data

Results flagged for a closer look

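In 4 of the 41 named genes 1 control mouse lay far from the other 4 controls, and in each it was GqVeh mouse 784, whose column rests on 6 discs. Chance flags about 1 in 20 groups of independent, normally distributed and equally precise values. Mouse 784 had fewer UMIs than the other controls, and the genes share the same mice and were mostly chosen on these data. The 4 of 41 can therefore not be set against that rate. Mrpl14 had 0.186 UMIs per 10000 in mouse 784, against 0.414 to 0.503 in the other controls, a value from 2 UMIs. Fabp7 had 1.21 (13 UMIs), Gng4 1.95 (21 UMIs) and Nr1d1 1.86 (20 UMIs), each above the other controls.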

How the results depend on the processing

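No setting, and no mouse left out, gave a gene past an adjusted p of 0.05 in the LSX, in LSX minus CP or in LSX minus white matter. For GqCNO against all controls the smallest adjusted p was 0.406, without mice 804 and 784 (chosen after seeing the data). Against 94 higher and 258 lower genes, unadjusted counts were 45 and 71 with a filter of 0.5, 202 higher with no filter, 161 lower with the array as a block, 171 higher in edgeR, 213 and 165 in limma voom, 163 higher after thinning, and 148 higher without mice 804 and 784. Leaving out 1 mouse gave 46 to 186 higher and 107 to 604 lower, with 46 and 107 without mouse 804, 186 and 604 without 781, 61 and 109 without C2W2, 58 and 146 without C1W7, and 557 lower without 801. The methods' t-test on values as deposited gave 10 higher and 35 lower genes against both control groups, where limma gave 4 and 18, and 0 after adjustment against either group. LSX minus CP had 120 and 244 genes, with 46 and 81 at the filter of 0.5, 72 and 139 with the array block, and 67 to 208 and 135 to 507 leaving out 1 mouse (67 and 144 without 804, 208 and 461 without 781, 507 lower without 801, 76 higher without C2W2, 135 lower without C1W7). LSX minus white matter had 209 and 248, with 27 and 65, 139 and 153, and 149 to 372 and 136 to 408 (372 and 408 without 781, 136 lower without 804). The cause of these shifts was not tested, other than that filters change the number of genes.

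Where groups do not overlap, the direction is fixed in advance when mice are left out, the constant changes or the control groups are reweighted. The rule asked for no overlap in the largest differences. A changed filter also leaves the difference of a gene as it was. Of 934 recomputed differences of named genes, many fixed in this way, 918 kept their direction, so this count does not measure stability. The other 16 were Tmem68 (0.16 after thinning), Prkcd (-0.022 with control groups weighted equally, -0.04 without 801, -0.17 without 784, -0.11 without 804 and 784), Ppp1r1b (-0.087 without 804, -0.14 without 804 and 784), Aldh1l1 (-0.11 thinned, -0.032 without 801), Aif1 (-0.047 with a constant of 0.01, -0.021 with equal weights, -0.16 without 801, -0.27 without 781, -0.04 without 802, -0.21 without 784) and P2ry12 (-0.0019 without 781). Leaving out 1 mouse, the highest values were 0.66 for Ppp1r1b, 0.18 for Aldh1l1, 0.58 for Aif1 and 0.49 for P2ry12. No paired analysis was possible because mouse numbers differ between groups. The arrays, each with mice of all 3 groups, were fitted as a block instead, with the counts given above. Depth was lowest in mice 804 and 784, where rare genes rest on few UMIs.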
